A study of Mus musculus with 6 samples.

Results

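The Elovl genes encode the fatty acid elongases, and 7 of them (Elovl1 to Elovl7) were followed in mouse skin with and without active Nrf2. All probe sets whose gene symbol in the array annotation was one of these names were taken, which gave 19 of the 45037 probe sets tested. Elovl7 had 6 probe sets, Elovl1 had 4, Elovl6 had 3, Elovl4 and Elovl5 had 2 each, and Elovl2 and Elovl3 had 1 each. Probe sets of a gene read the same transcripts and are not independent of each other.

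Back skin was taken whole from 6 female littermates on postnatal day 2.5, and each mouse gave 1 array. In 3 of them, labelled K5cre-caNrf2 (tg/tg), Cre recombinase under the keratin 5 promoter accompanied a transgene for constitutively active Nrf2, a transcription factor that drives cytoprotective genes. The other 3, labelled K5cre-wt (tg/wt), served as controls, so both labels name K5cre. All mice were of a mixed FVB/N and C57BL/6 background. The keratin 5 promoter is active in basal keratinocytes of the epidermis and in hair follicle and sebaceous gland epithelium, while the RNA also came from dermis, fat and muscle. The genotype entry of the caNrf2 samples reads tg/g, so groups were taken from the sample titles.

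Elongases sit in the endoplasmic reticulum and catalyse the condensation step that opens each round of fatty acid elongation, in which a malonyl unit is joined to an acyl-CoA. A reductase, a dehydratase and a second reductase complete the round, and the enzymes differ mainly in the acyl chains they accept. ELOVL6 extends palmitate to stearate, ELOVL5 and ELOVL2 act on polyunsaturated chains, and ELOVL1, ELOVL3 and ELOVL7 act on saturated and monounsaturated chains. ELOVL4 makes the longest chains, which are built into the acylceramides of the skin barrier. In mouse skin Elovl3 is known from sebaceous glands and hair follicles, and it is also a gene of brown fat.

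The arrays passed a check of their labels. All 6 genes chosen as references for Nrf2 activity (Nfe2l2 itself, Nqo1, Gclc, Gclm, Srxn1 and Gsta4) were higher in caNrf2 skin, by 0.63 to 4.41 on the log2 scale, a response already known from earlier results of these data. No measured keratinocyte, fibroblast or white adipocyte marker averaged under 20. Pearson correlations of log2 intensity lay between 0.9976 and 0.998 within caNrf2 arrays, between 0.9973 and 0.9977 within control arrays and between 0.9949 and 0.9962 across groups. Y-linked genes served as a gauge of background, since all mice were female, and 11 of their 13 probe sets averaged under 20 in each group. The 3'/5' log2 ratio of Actb, a sign of RNA quality, was 0.518 to 0.538 in caNrf2 arrays and 0.480 to 0.503 in control arrays (exact permutation test, two-sided, p = 0.1, which is as low as 3 against 3 can go). Its part in the results was not tested.

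Differences of the elongases were small, and the 2 probe sets that passed the test were both lower in caNrf2 skin. In caNrf2 skin Elovl3 fell by 23.4% and the called probe set of Elovl6 fell by 27.1%. Both probe sets of Elovl5 lay lower in every caNrf2 array than in any control array, and Elovl1 and most of the Elovl7 probe sets lay higher, but none of these passed the test. Elovl4 differed little and Elovl2 was at background. In limma with Benjamini-Hochberg adjustment over all 45037 probe sets, 2 of the 19 Elovl probe sets were lower at an adjusted p under 0.05, where 0.633% of all probe sets were lower. None was higher, where 1.04% of all probe sets were higher, although 4 had an unadjusted p under 0.05 in that direction and 5 in the lower one, where 8.9% and 8.53% of all probe sets did. With an intensity trend and robust variances the counts were 1 higher and 5 lower, where 1.49% and 1.35% of all probe sets were called. For 13 of the 19 probe sets the 2 groups were free of overlap, 7 of them higher and 6 lower in caNrf2 skin, where 23% of all probe sets and 26.6% of those with a mean intensity of at least 100 did not overlap (11.4% higher and 11.7% lower over all). The median log2 difference was 0.02 over the 19 probe sets against -0.00 over all probe sets. With 1 probe set a gene it was -0.18 over the 7 genes, which is the value of Elovl2, and -0.13 over the 6 genes without Elovl2.

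**Figure D1:**
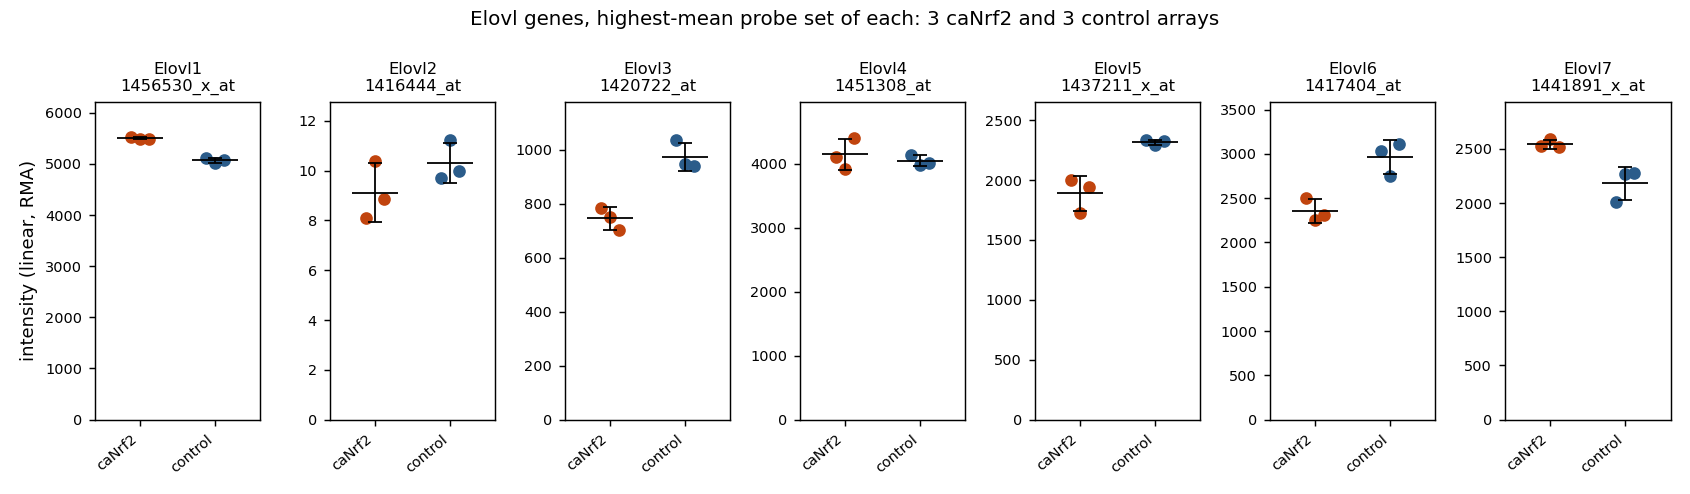
Intensity (linear scale, from 0) of the highest-mean probe set of each Elovl gene in the 3 caNrf2 and 3 control arrays, with points for arrays and black bars for the mean ± SD. The groups are apart for Elovl1, Elovl3, Elovl5, Elovl6 and Elovl7 and overlap for Elovl2 and Elovl4, and each panel has its own axis, so heights cannot be compared between genes.

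Elovl3 had 1 probe set, with intensities of 785, 752 and 701 in the caNrf2 arrays and 1034, 945 and 940.5 in the control arrays. Each caNrf2 array was below each control array. The mean was 746 ± 42.1 in caNrf2 and 973 ± 52.7 in control skin (SD, n = 3 each), a log2 difference of -0.38 ± 0.07 (SE; limma, adjusted p = 0.0326). In linear terms Elovl3 fell by 23.4%, with a 95% interval from -31.5% to -14.2%. Each of the 6 fits with an array left out lost the call (adjusted p between 0.0584 and 0.14), while the log2 difference stayed between -0.42 and -0.34. In whole skin, fewer cells of a type and less RNA per cell cannot be told apart.

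Elovl6 had a called probe set, 1417403_at, with 1177, 1019.7 and 1130.2 in the caNrf2 arrays and 1568, 1384 and 1614 in the control arrays. Replicate 2 was the lowest of its group on both sides, and the groups did not overlap. The log2 difference was -0.46 ± 0.08 (SE; limma, adjusted p = 0.0283), so that it fell by 27.1%, with a 95% interval from -36.0% to -17.0%. Leaving out caNrf2 replicate 2, caNrf2 replicate 3, control replicate 1 or control replicate 3 lost the call (adjusted p between 0.0889 and 0.12). The second Elovl6 probe set, 1417404_at, read 2502, 2253 and 2307 in caNrf2 arrays and 3031, 2745 and 3112 in control arrays. It showed the same order of arrays within each group and no overlap, at a log2 difference of -0.33 ± 0.08, but did not pass (limma, adjusted p = 0.0662). The third, 1442656_at, was less bright than the others, at 86.3 ± 5.9 in caNrf2 and 93.7 ± 12.8 in control skin (SD, n = 3 each). Its groups overlapped, at a log2 difference of -0.11 ± 0.10 (SE; limma, adjusted p = 0.608).

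Elovl5, the elongase of polyunsaturated chains, had probe sets 1437211_x_at and 1415840_at. A name ending in x_at in the array maker's naming marks probes that may also match other transcripts. Probe set 1437211_x_at read 1998, 1726 and 1941 in caNrf2 arrays and 2332, 2291 and 2325 in control arrays. Probe set 1415840_at read 1420.5, 1412 and 1423 in caNrf2 arrays and 1649, 1742 and 1655 in control arrays. All caNrf2 values were below all control values in both. The log2 differences were -0.30 ± 0.07 and -0.25 ± 0.06 (SE; limma, adjusted p = 0.0849 and 0.0912), with 95% intervals of -0.46 to -0.13 and -0.38 to -0.11. Neither passed in the fit over all probe sets, but 1437211_x_at did when each gene entered with 1 probe set (adjusted p = 0.0464). Values under each setting are plotted for the probe sets of Elovl3, Elovl5 and Elovl6 with a control mean above 100, which leaves out 1442656_at of Elovl6.

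**Figure D2:**
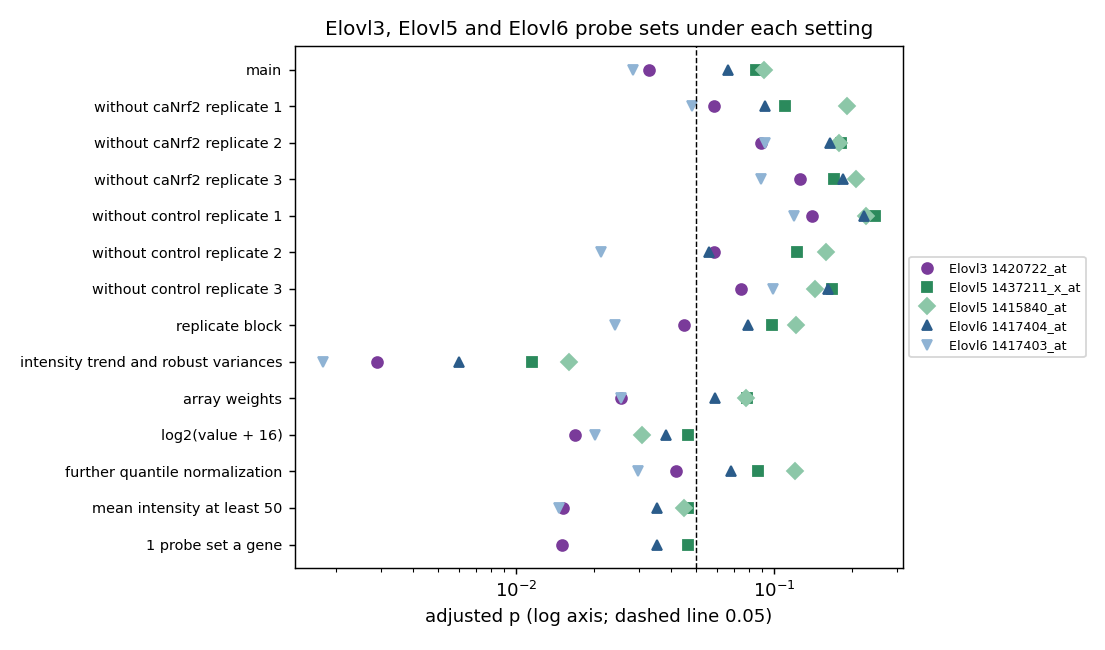
Adjusted p (log axis) in the main fit and under 13 other settings, with a dashed line at 0.05. Shown are Elovl3, both Elovl5 probe sets, and 1417403_at and 1417404_at of Elovl6. Points left of the line passed: with 1 array left out, only 1417403_at of Elovl6 passed, and only without caNrf2 replicate 1 or control replicate 2.

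Promoter windows are shown for Elovl6 and Elovl5, which lay lower together in caNrf2 skin, and for Elovl7, which lay higher, because Nrf2 and the lipid regulators act through short motifs near gene starts. The windows run from 250 bases before to 50 bases after the start, from RefSeq on GRCm38.p6, and 6 of the 7 genes (all but Elovl3) matched. Only windows of this length were kept and those on a single chromosome were left out, so shares of all windows are over those kept. Capitals mark any match, on either strand, to TGACNNNGC (the core of the antioxidant response element bound by Nrf2), TCACNCCAC (a sterol response element), CACGTG (an E-box), CCAAT or GGGCGG (a GC box).
Elovl6, chr3:129532136-129532435, + strand: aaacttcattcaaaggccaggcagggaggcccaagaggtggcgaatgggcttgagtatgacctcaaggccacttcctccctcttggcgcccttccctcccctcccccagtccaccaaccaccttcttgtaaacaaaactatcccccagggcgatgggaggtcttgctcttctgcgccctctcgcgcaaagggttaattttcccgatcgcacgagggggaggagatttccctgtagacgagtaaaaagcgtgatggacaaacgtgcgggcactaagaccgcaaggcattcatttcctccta
Elovl5, chr9:77917115-77917414, + strand: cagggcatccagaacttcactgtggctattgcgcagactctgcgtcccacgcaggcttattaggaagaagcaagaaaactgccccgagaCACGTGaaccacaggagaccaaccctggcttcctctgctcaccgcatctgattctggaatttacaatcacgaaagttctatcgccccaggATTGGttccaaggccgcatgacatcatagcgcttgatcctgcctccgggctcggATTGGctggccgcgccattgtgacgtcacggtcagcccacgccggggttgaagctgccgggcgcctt
Elovl7, chr13:108214154-108214453, + strand: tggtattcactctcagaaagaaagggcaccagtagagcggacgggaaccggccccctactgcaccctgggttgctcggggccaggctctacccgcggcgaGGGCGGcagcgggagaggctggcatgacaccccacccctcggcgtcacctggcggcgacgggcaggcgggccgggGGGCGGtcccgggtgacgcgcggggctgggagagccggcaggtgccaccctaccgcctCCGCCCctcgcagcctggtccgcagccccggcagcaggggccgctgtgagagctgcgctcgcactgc
The core TGACNNNGC was in 0 of the 8 Elovl windows and in 12.4% of all 32851 windows, and TCACNCCAC was in 0 of the 8 and in 1.24% of all. The E-box CACGTG was in 2 Elovl windows, those of Elovl4 and Elovl5, and in 7.15% of all. CCAAT was in 3 of the 8 Elovl windows and in 37.4% of all, and GGGCGG in 5 and in 35.7%. The Elovl6 window held none of the 5 motifs, and in the 3 windows shown no match overlapped a match to another motif. These are matches of letters in short windows and say nothing about binding.

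Elovl7, an elongase of saturated chains, had the most probe sets and they differed among themselves. Probe set 1441891_x_at read 2524, 2591 and 2518 in caNrf2 arrays and 2007, 2265 and 2279 in control arrays, with control replicate 1 the lowest and no overlap. Its log2 difference was 0.22 ± 0.07 (SE; limma, adjusted p = 0.165). With an intensity trend and robust variances it passed, at adjusted p = 0.0486. Probe set 1424097_at read 2031, 1919.6 and 2200.3 in caNrf2 arrays and 1772, 1841 and 1798 in control arrays, also without overlap, at 0.18 ± 0.07 (adjusted p = 0.228). Probe set 1424098_at differed by 0.12 ± 0.06 without overlap, and 1440312_at and 1440354_at by 0.07 ± 0.08 and 0.02 ± 0.06 with overlap. Probe set 1441091_at had a difference of opposite sign, also without overlap and without passing. It averaged 137.5 ± 5.36 in caNrf2 and 149 ± 7.39 in control skin (SD, n = 3 each; log2 difference -0.12 ± 0.07, limma, adjusted p = 0.395).

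Elovl1, an elongase of saturated and monounsaturated very long chains, had 4 probe sets that all lay higher in caNrf2 skin with no overlap, and none passed. Probe set 1456530_x_at read 5523, 5484 and 5496 in caNrf2 arrays and 5121, 5012 and 5076 in control arrays. The spread within each group was small beside the gap between them, at 5501 ± 20.4 in caNrf2 and 5070 ± 54.7 in control skin (SD, n = 3 each). The log2 difference was 0.12 ± 0.06 (SE; limma, adjusted p = 0.339). Probe sets 1455994_x_at and 1425676_a_at gave 0.13 ± 0.06 and 0.15 ± 0.06. Probe set 1443820_x_at read 212.5, 265 and 207 in caNrf2 arrays and 156.5, 187 and 190.4 in control arrays, a log2 difference of 0.35 ± 0.11 (limma, adjusted p = 0.155).

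Elovl4, the elongase of the acylceramide chains, overlapped between groups in both probe sets. Probe set 1451308_at read 4102, 3917 and 4406 in caNrf2 arrays and 4136, 3970.2 and 4014 in control arrays. The log2 differences were 0.03 ± 0.07 for 1451308_at and -0.04 ± 0.07 for 1424306_at (SE; limma, adjusted p = 0.829 and 0.795). Their 95% intervals ran from -0.12 to 0.19 and from -0.20 to 0.11, which in linear terms spans changes between -12.7% and 13.9%. Elovl2 averaged 9.11 ± 1.18 in caNrf2 and 10.3 ± 0.815 in control skin (SD, n = 3 each). These values are no brighter than Y-linked probe sets, and no direction is given for it.

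**Figure D3:**
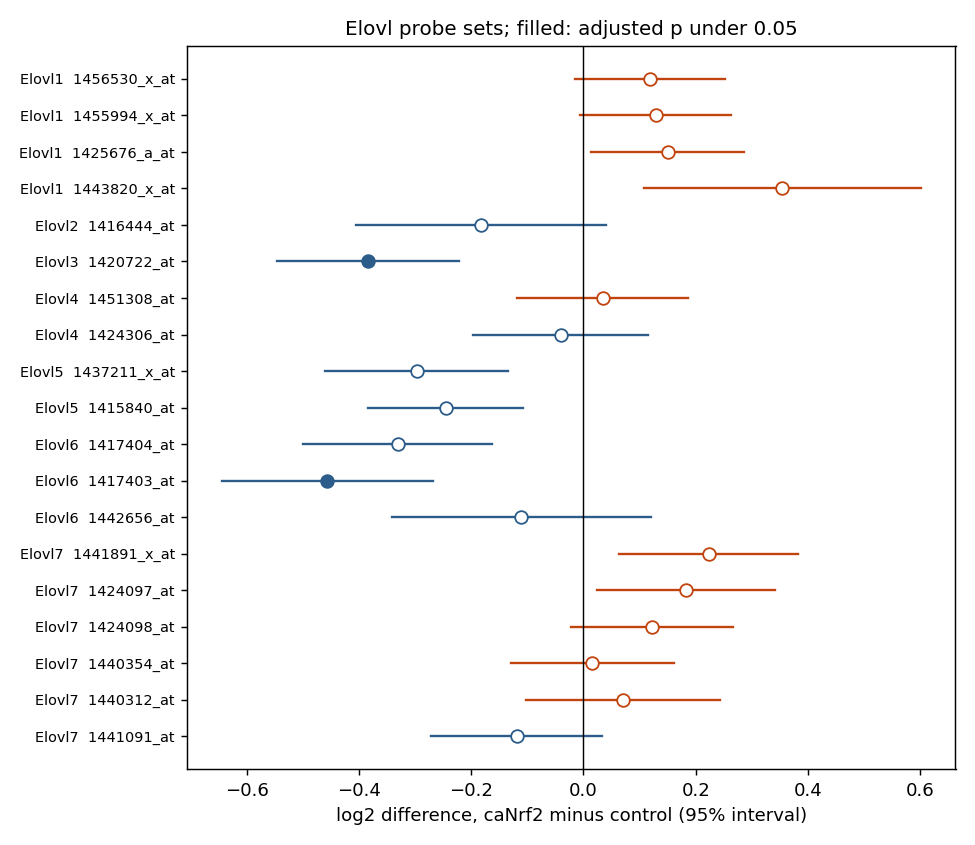
Log2 difference, caNrf2 minus control, of all 19 Elovl probe sets with 95% intervals from limma, red where higher and blue where lower in caNrf2 skin. Only 1 probe set each of Elovl3 and Elovl6 is filled (adjusted p under 0.05), and the intervals of 17 of the 19 lie within a 1.5-fold change either way.

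The deposited values still differed in distribution between the groups, with a lower upper quartile in caNrf2 arrays (325 to 328) than in control arrays (334 to 341). Among probe sets within a factor of 2 of each Elovl probe set in mean intensity, the median log2 difference lay between -0.05 and 0.04. After a further quantile normalization Elovl3 gave -0.36 and Elovl6 -0.44 for 1417403_at, both still called (adjusted p = 0.0416 and 0.0297).

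The enzymes that complete the elongation round differed little. Of 7 partners (Hsd17b12, the first reductase; Hacd1 to Hacd4, the dehydratases; Tecr, the second reductase, and its relative Tecrl), 0 rose and 0 fell in limma, and 0 had an unadjusted p under 0.05 in either direction, each gene being read by its probe set of highest mean. With 1 probe set a gene, 1.51% of all 18193 genes were higher and 0.786% were lower. The partners' median was -0.06, and their differences ran from -0.12 to 0.05. The dehydratase Hacd1 had the smallest p, at 1556 ± 74.0 in caNrf2 and 1695 ± 48.3 in control skin (SD, n = 3 each; limma, adjusted p = 0.363). Hacd4 came next, at a log2 difference of -0.07 ± 0.08 (adjusted p = 0.667). Another probe set of the dehydratase Hacd2, chosen after its values were seen, had an unadjusted p of 0.0128 at a log2 difference of -0.20 ± 0.06 without overlap (limma, adjusted p = 0.173).

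Among 10 genes of fatty acid synthesis, 1 rose, 0 fell and 9 did not pass, with a median of -0.04. The riser was malic enzyme Me1, an NADPH source, at 2281 ± 97.3 in caNrf2 and 1280 ± 60.6 in control skin (SD, n = 3 each; limma, adjusted p = 0.000155). Fasn, the fatty acid synthase that makes the palmitate ELOVL6 extends, gave -0.04, and the rate-limiting carboxylase Acaca gave -0.13, both without passing (adjusted p = 0.864 and 0.497; both chosen after their values were seen). The 3 probe sets of Acss2, also chosen after their values were seen, lay higher in caNrf2 skin without overlap. That of highest mean gave 0.37 ± 0.08 and did not pass (limma, adjusted p = 0.0575). Another gave 0.42 ± 0.10 and did not pass (adjusted p = 0.0809). The dimmest passed, at a log2 difference of 0.41 ± 0.07 (adjusted p = 0.0262). It was near background, at 29.6 ± 2.38 in caNrf2 and 22.2 ± 0.483 in control skin (SD, n = 3 each).

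Of 9 desaturases, which place double bonds in the same acyl chains, 1 rose, 1 fell and 7 did not pass, with a median of -0.09. Scd3, a stearoyl-CoA desaturase of sebaceous glands, read 142.5, 126 and 149 in caNrf2 arrays and 291, 278 and 221 in control arrays. Every caNrf2 array was below every control array, and the log2 difference of -0.92 ± 0.11 was past the test (SE; limma, adjusted p = 0.00201), as was that of its other probe set, -0.81 ± 0.11 (adjusted p = 0.0048). Fads2, which desaturates the polyunsaturated chains that ELOVL5 and ELOVL2 extend, rose, with 194, 209.8 and 205 in caNrf2 arrays and 144, 169 and 149 in control arrays. Its log2 difference was 0.40 ± 0.08 (limma, adjusted p = 0.036), opposite in sign to that of Elovl5, and of the 6 fits with an array left out only the one without control replicate 2 kept the call (adjusted p up to 0.147). Its other probe sets gave 0.33 and 0.32 and did not pass. The stearoyl-CoA desaturases Scd1 and Scd2, chosen after their values were seen, gave -0.08 and -0.14 and did not pass (adjusted p = 0.583 and 0.299).

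Of 14 measured transcription regulators of lipid synthesis and use, 1 rose, 0 fell and 13 did not pass, with a median of -0.05. The riser was Ppard, a nuclear receptor for fatty acids, with 614, 656 and 709 in caNrf2 arrays and 349.6, 323 and 311 in control arrays. The groups were far apart (log2 difference 1.01 ± 0.08; limma, adjusted p = 9.28e-05), but the second probe set, near background, gave 0.22 and did not pass. Srebf1, a regulator of Elovl6 in liver, gave -0.05 and did not pass (adjusted p = 0.718; chosen after its value was seen). The 5 probe sets of Ppargc1a, also chosen after their values were seen, lay lower. That of highest mean gave -0.40 ± 0.09 and did not pass (SE; limma, adjusted p = 0.0731). Another, near background, passed at -0.45 ± 0.09 (adjusted p = 0.034), with 16.3 ± 1.81 in caNrf2 and 22.2 ± 0.987 in control skin (SD, n = 3 each).

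Of 17 measured genes that use very long acyl chains, in ceramide, acylceramide and wax synthesis, 1 rose, 0 fell and 16 did not pass, with a median of -0.02. Cyp4f39, which hydroxylates the ultra-long chains made by ELOVL4, rose, with 890.2, 908 and 890.2 in caNrf2 arrays and 659, 636 and 627 in control arrays (log2 difference 0.48 ± 0.06; limma, adjusted p = 0.00313). Far2, a reductase that turns acyl chains into wax alcohols, chosen after its values were seen, gave -0.39 ± 0.08 at an adjusted p = 0.0505, while its other probe set gave -0.60 ± 0.10 and passed (adjusted p = 0.0161). The 3 probe sets of the ceramide synthase Cers4, also chosen after their values were seen, lay lower without overlap, and 1 of them passed (log2 difference -0.46 ± 0.09; limma, adjusted p = 0.0326) while that of highest mean gave -0.20 ± 0.07 and did not (adjusted p = 0.19). Of 9 genes that shorten very long chains in peroxisomes, 1 rose, 0 fell and 8 did not pass, with a median of -0.00. The riser was Acox2, an acyl-CoA oxidase of branched chains and bile acid precursors, at 523 ± 12.2 in caNrf2 and 221 ± 15.9 in control skin (SD, n = 3 each; limma, adjusted p = 1.01e-05).

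**Figure D4:**
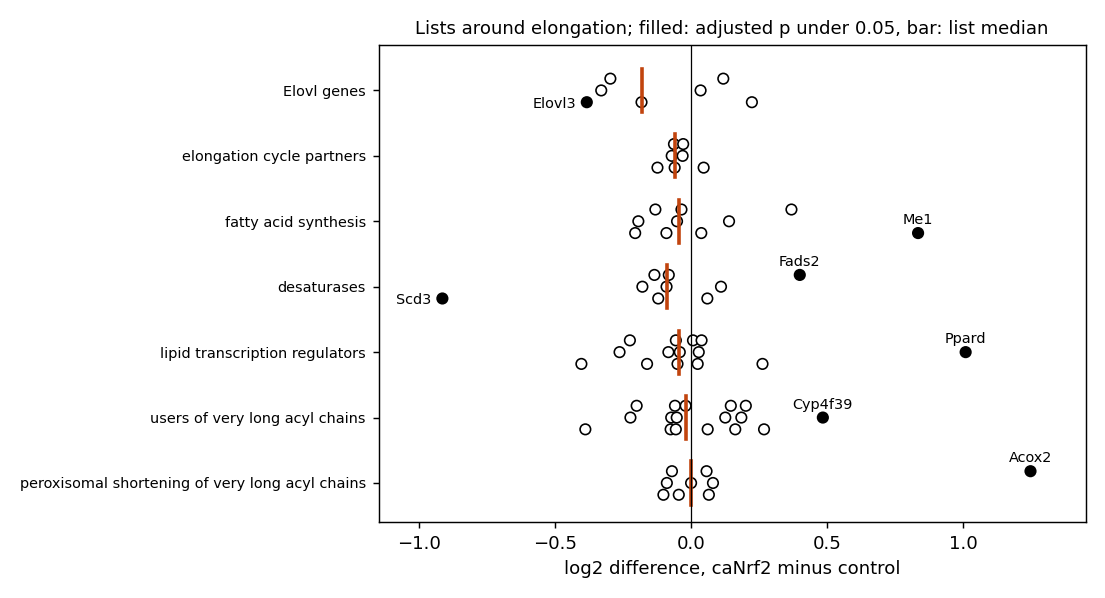
Log2 difference, caNrf2 minus control, of the Elovl genes and of each gene in the lists around elongation (highest-mean probe set of each), filled where the adjusted p was under 0.05, with a red bar at the list median. Among the Elovl genes Elovl3 is filled at -0.38, and in the other lists 1 gene fell (Scd3) and 5 rose (Me1, Fads2, Ppard, Cyp4f39 and Acox2).

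Marker lists for the cell types of skin were summed on each array to set beside the falls of Elovl3 and Elovl6. Hair follicle keratins summed to less in caNrf2 skin, with 85.6% to 88.7% of the control mean in caNrf2 arrays, against 96.3% to 103.6% in control arrays. All 12 measured hair keratins lay lower and 8 had an unadjusted p under 0.05, where 8.28% of all genes were lower at that level and 9.72% higher, but 0 passed in limma. By sign alone all 10 skeletal muscle markers lay lower too, with 1 at that level. Among all probe sets with a mean intensity of at least 50 the median log2 difference was -0.03. Brown adipocyte markers summed to 90.2% to 90.9% in caNrf2 arrays, against 95.2% to 102.8% in control arrays, with 0 of 8 passing and 1 higher and 3 lower at an unadjusted p under 0.05. Cidea, also on the sebocyte list, Cox8b and Zic1 weigh most in this sum. Ucp1, the defining gene of brown fat, was the 1 higher and so went against the sum. Its log2 difference was 0.39 ± 0.11 without overlap and did not pass (SE; limma, adjusted p = 0.127). Ucp1 was dim in both groups, at 26.3 ± 4.53 in caNrf2 and 19.8 ± 0.91 in control skin (SD, n = 3 each), no brighter than the brightest Y-linked probe sets. Sebocyte markers summed to 103.4% to 110.2% in caNrf2 arrays, against 96.9% to 101.9% in control arrays, a sum in which Fabp5, Krt79 and Mgst1 weigh most and Mgst1 rose. The mean log2 intensity of the same markers, which weighs them equally, ran the other way. It was 10.279 to 10.327 in caNrf2 arrays, against 10.332 to 10.451 in control arrays, so the groups were only just free of overlap. Of the 9 sebocyte markers 6 lay lower and 3 higher, with Scd3 the 1 that fell. Scd3 had the largest difference of the list (-0.92) and so moved this mean most, and the mean without Scd3 was not computed. The part of these cell types in the Elovl differences was not tested.

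White adipocyte markers overlapped between groups, at 96.3% to 102.2% in caNrf2 arrays, against 98.8% to 100.8% in control arrays, with Lep as the 1 of 8 that fell. Of the keratinocyte lists, 1 of 8 basal genes (Krt15) and 1 of 9 suprabasal genes (Ivl) fell, and 0 rose. By sign alone, 3 basal genes lay higher and 5 lower, and 7 suprabasal genes lay higher and 2 lower. The basal list had 1 gene higher and 1 lower at an unadjusted p under 0.05, and the suprabasal list 0 and 1. The higher basal gene was Itgb4, at a log2 difference of 0.33 ± 0.09 without overlap (SE, limma, adjusted p = 0.104). Of the other lists, 0 of 10 skeletal muscle, 0 of 8 fibroblast, 0 of 7 endothelial and 0 of 8 leukocyte markers passed in limma. By sign, 0 muscle markers lay higher and 10 lower, and 1 fibroblast marker lay higher and 7 lower. Endothelial markers lay higher in 6 and lower in 1, and leukocyte markers higher in 6 and lower in 2. Fibroblast markers summed to 95.5% to 97.9% in caNrf2 arrays, against 98.6% to 102.1% in control arrays, and endothelial markers to 102.9% to 104.6% in caNrf2 arrays, against 98.0% to 102.2% in control arrays, both without overlap. The sums of the muscle, leukocyte and both keratinocyte lists overlapped. Y-linked genes, the gauge of background, also summed without overlap, to 106.6% to 115.0% in caNrf2 arrays, against 95.5% to 104.5% in control arrays. A sum without overlap was thus also seen near background. At an unadjusted p under 0.05, 1 muscle gene was lower, 1 leukocyte gene was higher and 1 lower, and no fibroblast or endothelial gene differed. Fabp5, Krt79, Mgst1, Cidea, Cox8b, Zic1, Lep, Krt15, Itgb4 and Ivl were chosen after their values were seen.

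**Figure D5:**
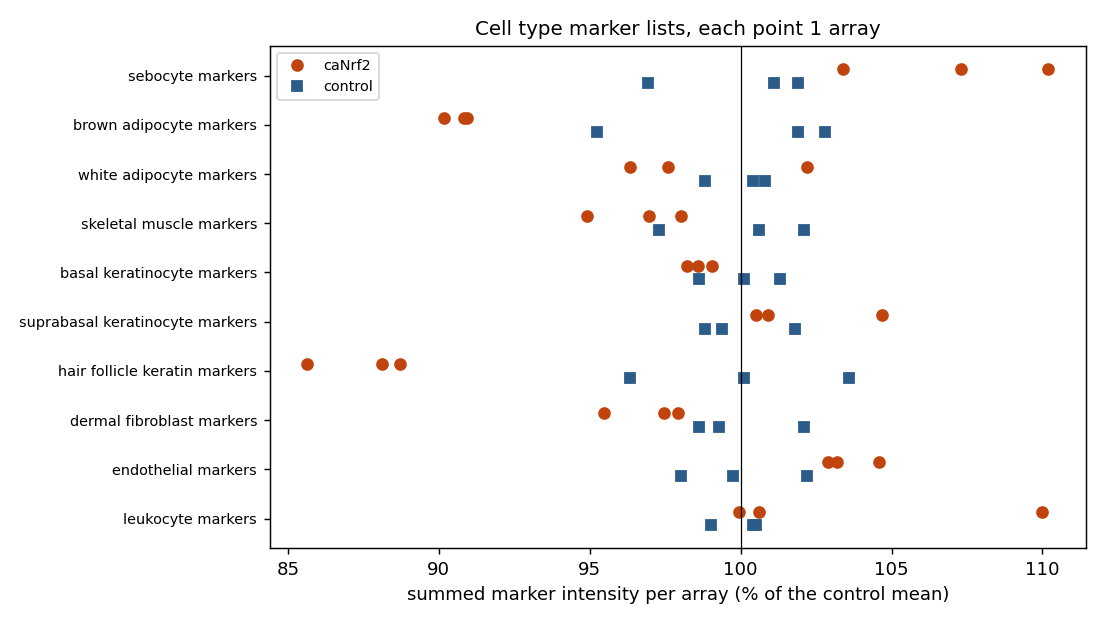
Summed intensity of each cell type marker list on each array, as a percent of the control mean, with circles for caNrf2 and squares for control arrays. Hair follicle keratin sums in caNrf2 arrays (85.6% to 88.7%) lie apart from those in control arrays, and those of white adipocyte markers overlap.

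The genes most like Elovl3 across the 6 arrays were sought among 11153 genes with a mean intensity of at least 100, by Pearson correlation of log2 intensity. These were Prickle1, a planar cell polarity gene (r = 0.9993), Galnt4, an enzyme of O-glycosylation (r = 0.997), and the adhesion receptor Adgrg6 (r = 0.996). Of these, Adgrg6 passed as lower, at 96.4 ± 4.51 in caNrf2 and 129 ± 7.21 in control skin (SD, n = 3 each; limma, adjusted p = 0.0181). For Elovl6, represented by 1417404_at, they were Gabrp, a GABA receptor subunit (r = 0.9966), the transcription factor Nfib (r = 0.9941) and Polr2b, a subunit of RNA polymerase II (r = 0.9924). Gabrp fell too, with 470, 371 and 407 in caNrf2 arrays and 668, 549 and 676 in control arrays (log2 difference -0.60; limma, adjusted p = 0.0243). These correlations share the group difference and the 6 arrays and are the highest of many searched, so they are given as a description without a test.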

How the data were processed

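Total RNA (2 ug) of each back skin was turned into biotinylated cRNA for Affymetrix arrays, per the labels' protocols. The deposited table gives an intensity, not on a log scale, for each probe set. Per the submitters' processing notes RMA produced it, a method that corrects background, quantile-normalizes arrays and summarises probes. No source used here gives its version. The number of arrays limits the precision.

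Of 45101 probe sets, 64 control probe sets were left out. Symbols (1 for 34945 of the others, several for 932, none for 9160) came from the platform annotation and were updated through Entrez identifiers with a RefSeq table of GRCm38.p6 (34741 matched). Log2 intensities entered limma 3.58.1 (R 4.3.3) in a model of group alone (4 residual and 5.72 prior degrees of freedom), with two-sided p-values adjusted by Benjamini-Hochberg over all 45037 probe sets and a threshold of 0.05. Data were simulated with the real means, the variances estimated by limma and independent normal noise, and 200 probe sets were changed. The fit recovered 10% of changes of 0.25, 90% of changes of 0.5 and 100% of changes of 1 or 2 on the log2 scale. In that 1 simulated set 9.64% of its calls were false. The real data gave 470 higher and 285 lower probe sets, so recovery in them can differ. In gene lists the probe set with the highest mean stood for its gene. The rule for named genes was all Elovl genes, the called genes of each pathway list (or the 2 with the smallest p), and the 3 genes best correlated with each called member. Other genes are named as reference or marker genes or as chosen after their values were seen. The members and lists were chosen with earlier results of these data known. List genes without a probe set of their own symbol are not analysed here. The litter is shared, and nothing in the labels marks a batch.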

Additional observations from a re-analysis of the deposited data

How the results depend on the processing

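Over all probe sets, 470 were higher and 285 lower in caNrf2 skin. Leaving out 1 array gave 280 to 354 higher and 79 to 270 lower. The higher count was 671 with an intensity trend and robust variances. The lower count was 177 with the replicate block, 610 with an intensity trend and robust variances, 428 with log2(value + 16) and 453 among probe sets with a mean intensity of at least 50. Of the Elovl probe sets, 2 were lower in the main fit, 0 to 1 with 1 array left out, and 5 each with the intensity trend, log2(value + 16) or the intensity minimum. These 5 were both Elovl5 probe sets, Elovl6 1417403_at and 1417404_at, and Elovl3. With 1 probe set a gene, 3 were lower. The higher Elovl count was 0 except for 1 with the intensity trend and robust variances. In the pathway lists, the 7 settings that keep all arrays gave up to 2 higher genes in fatty acid synthesis (under 5 of them), in the regulators (under 1) and in the users of very long chains (under 4), against 1 each, and 1 lower gene in the regulators (under 3) and the users (under 5), against 0. Leaving out an array lost the higher desaturase Fads2 in 5 of 6 fits, and no other list count differed. The called probe sets of Elovl3 and Elovl6 kept a lower value in all 13 and all 12 alternatives that could be run for them. Whether replicate numbers pair the arrays was not settled. Same-numbered arrays correlated in their deviations at 0.0413, 0.157 and 0.0826. Differently numbered arrays correlated at -0.139 to 0.0695, positive only for caNrf2 replicate 1 with control replicate 3 (0.0695). With the replicate block Elovl3 had an adjusted p of 0.0449 and 1417403_at of Elovl6 one of 0.0241. Dim signal limits Elovl2, and small differences such as that of Elovl1 lie where the fit recovered few changes in the simulation.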
